A study of Mus musculus with 6 samples.

Results

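The 34 genes described here encode the machinery that targets new proteins to the endoplasmic reticulum (ER) and moves them across its membrane. It also cuts their signal sequences and attaches their first sugars. The genes were chosen by symbol for these roles, with earlier results of these data known. All 34 were found among the 24346 gene symbols of the deposited table, and all 34 passed the filter of a mean of at least 0.5 FPKM (fragments scaled to transcript length and to the mapped fragments of the library) over the 6 livers, as did 11493 genes in all. They comprise 6 subunits of the signal recognition particle (SRP), 2 of the SRP receptor, 6 of the channel and its helpers, 4 of the translocon-associated protein (TRAP) complex, 11 of oligosaccharyltransferase (OST) and 5 of signal peptidase.

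Before a liver cell can release a protein, the nascent chain has to reach and cross the ER membrane. SRP binds the signal sequence as it leaves the ribosome and hands the ribosome to the SRP receptor, the chain passes through the Sec61 channel, signal peptidase cuts off the signal sequence, and OST transfers a preformed sugar tree to asparagine residues. Hepatocytes, which make most plasma proteins, are rich in this machinery, and several of its genes are known targets of the unfolded protein response, the programme that adjusts ER capacity to the load of client proteins.

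The study asked whether directing autophagosomes to lipid droplets (lipophagy) in hepatocytes alters steatohepatitis, and compared 3 control livers with 3 lipophagy livers by sequencing of poly(A) RNA. Male mice (C57BL/6 per the labels, C57BL/6J per the methods), 8 weeks old at the start, received CDAHFD, a choline-deficient, amino acid-defined, high-fat diet, for 6 weeks and were then returned to normal chow. Livers were taken 2 weeks later, at 16 weeks of age. Both groups had been given AAV8, an adeno-associated virus, with a thyroxine-binding globulin promoter, which restricts expression largely to hepatocytes. In lipophagy mice it encoded LDTS-eLIR, a lipid droplet-targeting sequence joined to an engineered LC3-interacting region, and in control mice LDTS-LIR mut, the same targeting sequence with a mutated region. Thus both groups carried diet, virus and the droplet-targeting part, and no healthy or untreated liver was part of the comparison. Hepatocyte markers were abundant in every liver (summed level of 10 genes, 57827 to 64571 FPKM in control and 69872 to 92282 FPKM in lipophagy livers).

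The livers differed in a property that touches every value below. The FPKM of all genes summed to 622696, 657300 and 681138 in control livers 1, 2 and 3 and to 782392, 734436 and 709993 in lipophagy livers 1, 2 and 3. Control liver 1 was thus lowest and lipophagy liver 1 highest. The steps between low FPKM values gave a rough estimate of sequencing depth of 0.855 to 1.27 relative to control liver 1, on which only 14.2% to 48.6% of the low genes of a liver fell. The summed FPKM of the 34 genes followed the same order of livers (1819, 2129 and 2230 in control livers and 2785, 2537 and 2395 in lipophagy livers). Their share of all FPKM was 0.292%, 0.324% and 0.327% in control livers and 0.356%, 0.345% and 0.337% in lipophagy livers, with no overlap between the groups but a small gap between control liver 3 and lipophagy liver 3. Changes are given on the log2(FPKM + 1) scale of the deposited values. Scaling each liver to the same sum of FPKM moved the median of all tested genes from 0.020 to -0.12, and quantile normalization moved it to 0.0074. Results that these scalings turned or reduced most are given beside the deposited ones. The part that this difference between libraries has in the results was not tested further.

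As a group the 34 genes stood at higher levels in the lipophagy livers. The mean was higher for 34 of 34 genes with the deposited values (54.5% of all tested genes), for 31 after quantile normalization and for 30 with the same sum of FPKM. The share of all tested genes is not given for these scalings, under which their median change was 0.0074 and -0.12. The median log2 change of the 34 was 0.33 as deposited, against 0.020 over all tested genes, with a range from 0.13 to 0.65. It was 0.21 after quantile normalization and 0.15 with the same sum of FPKM. With the same sum of FPKM the range was -0.050 (Sec62) to 0.47 (Ostc). In 25 of 34 genes all 3 lipophagy livers lay above all 3 control livers, against 15.4% of all tested genes (18% of those whose mean level lay within the range of the 34), and in 0 they lay below (10.8%). At an unadjusted p below 0.05 (limma), 24 were higher (11.5% of all tested genes, and 13.4% of those in the same range of level) and 0 were lower (7.97%). After Benjamini-Hochberg adjustment over all 11493 genes 0 of the 34 had an adjusted p below 0.05 (0.0261% of all tested genes, 3 genes), the lowest adjusted p being 0.131 (limma), so that no single gene of the group is called as changed. In whole liver a greater share of hepatocytes and more RNA per hepatocyte cannot be told apart.

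Control liver 1 held the lowest value of 27 of the 34 genes, and lipophagy liver 1 the highest of 25. Leaving out these livers, which were chosen for their values, lowers the difference by construction. Without both the median log2 change was 0.22, 34 of 34 genes were still higher and 12 had an unadjusted p below 0.05 (limma), against 6.55% of all tested genes in that fit. Leaving out control liver 1 gave a count of 17 (8.36% of all tested genes), and leaving out control liver 2 or 3 gave 24 in each case (8.1% and 7.9%). Leaving out lipophagy liver 1, 2 or 3 gave 17, 19 and 23 (6.95%, 9.41% and 14%). Without control liver 1 the log2 change of 10 of the 34 genes moved by over 1.5 times, against 0 to 3 genes without any other single liver. The 10 became Rpn1 0.18, Rpn2 0.06, Ddost 0.14, Dad1 0.11, Ost4 0.08, Krtcap2 0.10, Stt3b 0.10, Sec11c 0.12, Sec61g 0.26 and Ssr4 0.21. Without control liver 2 Tusc3 was at 0.14. Without lipophagy liver 1 Dad1 was at 0.09, Krtcap2 at 0.13 and Srp54a at 0.10. Ost4 was at 0.10 without lipophagy liver 2 and at 0.26 without lipophagy liver 3. With the replicate number as a block the count was 23 (9.86%). The count was 10 (2.05% of all tested genes) when each liver was scaled to the same sum and 17 (6.48%) after quantile normalization. Relative to the median of all tested genes, the members' median was 0.31 as deposited, 0.27 with the same sum and 0.20 after quantile normalization.

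**Figure D1:**
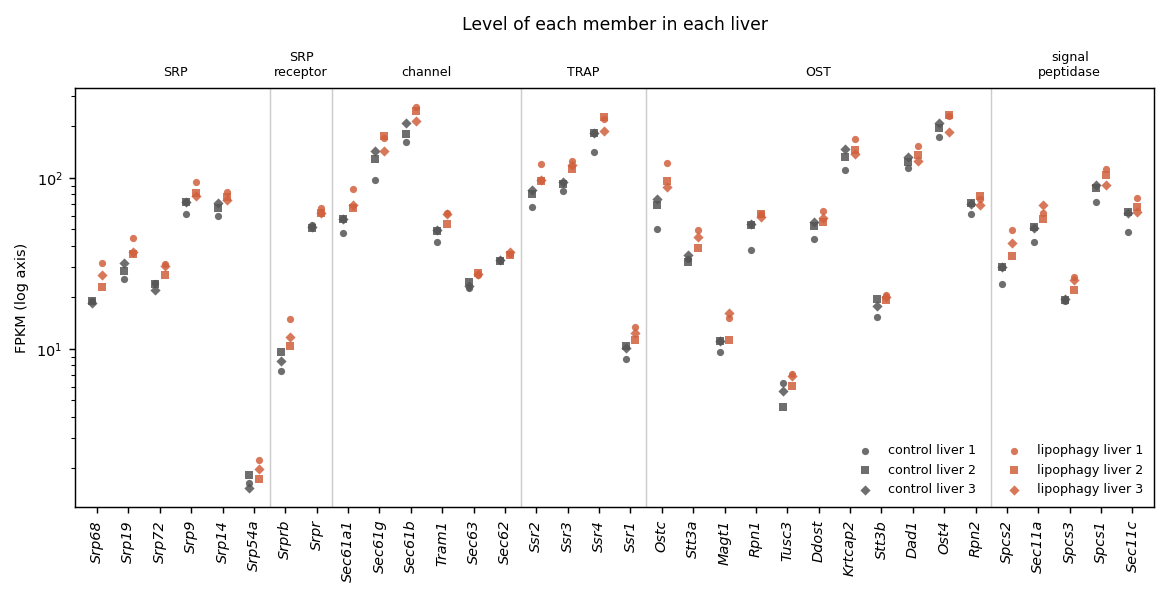
Level of each of the 34 genes in each liver (FPKM, log axis), grouped by complex, with control livers in grey and lipophagy livers in orange and 1 symbol per liver number. The levels span from Srp54a, at 1.53 to 2.23 FPKM, to Sec61b, at 162 to 260.4 FPKM, and the orange points lie above the grey ones without overlap in 25 genes.

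Levels per length differed widely among the 34 genes. The mean over the 6 livers ranged from 25.4 to 212 FPKM within the channel group, from 11.02 to 190.3 FPKM within TRAP and from 6.10 to 204 FPKM within OST. Over the 34 genes the log2 change and the log2 of the mean FPKM had a Spearman rho of 0.022 and a Pearson r of 0.069, a description across genes that share the same livers. With transcript length the rho was -0.19 and the r -0.24.

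The 34 genes had means on the same side with the deposited values. The sequences around their start sites were therefore searched for letters tied to the unfolded protein response. RefSeq promoters (GRCm38.p6, 250 bases before to 50 after the start) were matched for 25 of 34 genes and not for Srp19, Srp68, Sec61a1, Tram1, Ssr2, Ostc, Tusc3, Sec11c and Spcs3. On both strands 4 motifs were searched: the ER stress element (CCAAT and CCACG separated by 9 bases), the ER stress element II (ATTGG and CCACG separated by 1 base), and TGACGTGG and GCCACGT, shorter letters within sites known to be bound by Xbp1 and Atf6. The letters GCCACGT overlap the E-box CACGTG where a G follows and the reverse of TGACGTGG where CA follows. They occurred in 5 of 25 promoters (20%, namely Sec63, Spcs1, Srprb, Ssr1 and Ssr3), against 4.58% of the 8819 tested genes with a promoter and 2.58% of all 32851 promoters. The ER stress element II occurred in 1 (Krtcap2, at bases 17 to 27 after the start), against 0.0907% of tested genes with a promoter and 0.0365% of all promoters. The ER stress element occurred in 0 (0.181% and 0.119%), as did TGACGTGG (0.964% and 0.676%). These matches are a description and not sites shown to be bound.

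Shown for 3 of these genes are the GCCACGT letters, in capitals, with up to 30 bases on either side, before the start site and outside annotated exons, on the strand of the gene.
Sec63, chr10:42761443-42761495, plus strand: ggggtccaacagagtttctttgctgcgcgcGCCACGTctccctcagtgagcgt
Ssr1, chr13:37994246-37994312, minus strand: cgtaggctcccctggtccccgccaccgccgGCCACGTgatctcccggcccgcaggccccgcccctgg
Ssr3, chr3:65392708-65392774, minus strand: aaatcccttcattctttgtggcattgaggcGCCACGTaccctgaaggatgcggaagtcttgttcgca
Counted from -1 at the base before the start, the letters lie at -23 to -17 in Sec63, at -74 to -68 in Ssr1 and at -191 to -185 in Ssr3. Ssr1 carries them again at -27 to -21, and its first match runs into an E-box. The log2 changes of these 3 genes, 0.21, 0.32 and 0.40, lay within the range of the members without a match.

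Within SRP, Srp68 and Srp72 form the heterodimer of the particle's S domain, Srp19 aids assembly of the particle on its RNA, Srp9 and Srp14 pause elongation, and Srp54 is the GTPase that binds the signal sequence. Srp68 was at 19.1, 19.1 and 18.6 FPKM in control livers 1, 2 and 3 and at 31.7, 22.8 and 26.99 FPKM in lipophagy livers 1, 2 and 3. The 3 control livers were nearly equal, every lipophagy liver was higher, and the log2 change was 0.49 ± 0.12 (SE, adjusted p = 0.134 by limma). Srp19 was at 25.5, 28.7 and 31.6 FPKM in control and 44.2, 36.0 and 36.7 FPKM in lipophagy livers, again with no overlap, a log2 change of 0.43 ± 0.11 (SE, adjusted p = 0.144 by limma). Srp72 (log2 change 0.33 ± 0.085, the value after ± being the SE here and below), Srp9 (0.30 ± 0.10) and Srp14 (0.24 ± 0.091) did not overlap between groups either. With the same sum of FPKM their changes were 0.15, 0.12 and 0.064. The gene nearest to no change as deposited was Srp54a, at 1.64, 1.84 and 1.53 FPKM in control and 2.23, 1.73 and 1.98 FPKM in lipophagy livers, and its groups overlapped (log2 change 0.16 ± 0.093). This change depended on the setting, being 0.039 with the same sum of FPKM, 0.22 after quantile normalization, 0.23 with a pseudocount of 0.1 and 0.097 without lipophagy liver 1. Its level is uncertain, since 71.7% of the 100-base windows of its transcripts occur also in transcripts of other genes, chiefly its near-identical copies Srp54b and Srp54c. Srp54b is listed at 0 in every liver. Srp54c was at 3.51, 2.96 and 3.59 FPKM in control and 5.43, 3.79 and 3.86 FPKM in lipophagy livers. In SRP as a whole 5 of 6 genes were higher at an unadjusted p below 0.05 (limma), against 11.5% of all tested genes. With the same sum of FPKM 2 of 6 were, against 2.05%.

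The SRP receptor's α subunit, Srpr, is the GTPase that docks SRP, and its β subunit, Srprb, anchors it in the membrane. Srprb was at 7.41, 9.57 and 8.53 FPKM in control and 14.9, 10.3 and 11.7 FPKM in lipophagy livers, a log2 change of 0.48 ± 0.14 (SE, adjusted p = 0.162 by limma). The groups did not overlap, lipophagy liver 1 was highest, and the interval of the change (95%) was 0.16 to 0.80. Srpr stood at 53.1, 51.2 and 51.3 FPKM and 66.6, 62.2 and 62.3 FPKM, with little spread within either group and a log2 change of 0.29 ± 0.073 (SE, adjusted p = 0.137 by limma). With the same sum of FPKM the change was 0.31 for Srprb and 0.11 for Srpr, and after quantile normalization 0.43 and 0.16. Srprb kept an unadjusted p below 0.05 (limma) under both scalings and Srpr under neither. Of the 100-base windows of Srprb transcripts 26.0% are shared with other annotated genes, Gm20425 among them, against 5.15% for Srpr.

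In the translocation channel, Sec61a1 forms the pore, Sec61b and Sec61g are its small partners, Sec62 and Sec63 help chains that enter after translation. Sec63 also recruits the chaperone BiP, and Tram1 lines the path of many signal sequences. All 6 were without overlap between the groups, against 15.4% of all tested genes. At an unadjusted p below 0.05 (limma) 5 of 6 were higher as deposited (11.5% of all tested genes). After quantile normalization 3 were (6.48%), and with the same sum of FPKM 2 were, namely Sec61a1 and Sec61b (2.05%). Sec61a1 was at 47.5, 57.1 and 57.3 FPKM in control and 85.5, 66.3 and 69.4 FPKM in lipophagy livers (log2 change 0.44 ± 0.12 SE, adjusted p = 0.154 by limma). Sec61g was at 96.4, 129 and 143 FPKM and 172, 177 and 144 FPKM, so that control liver 3 and lipophagy liver 3 were almost equal, and its log2 change was 0.43 ± 0.15 (SE, adjusted p = 0.205 by limma). Sec61b, with the highest mean of the 34 over all 6 livers though below Ost4 in control livers 1 and 2, was at 162, 180.1 and 209.6 FPKM and 260.4, 247 and 215 FPKM (log2 change 0.39 ± 0.12 SE, adjusted p = 0.171 by limma). The changes of the 3 channel subunits lay between 0.39 and 0.44 as deposited. Without control liver 1 they were 0.35 for Sec61a1, 0.30 for Sec61b and 0.26 for Sec61g, and with the same sum of FPKM 0.26, 0.21 and 0.24. Tram1 (0.33 ± 0.097) and Sec63 (0.21 ± 0.072, and 0.033 with the same sum of FPKM) had smaller values. Sec62 had the log2 change nearest to 0 of all 34 as deposited, from 33.1, 32.7 and 33.2 FPKM to 35.9, 35.5 and 36.9 FPKM, and although its groups did not overlap its log2 change of 0.13 ± 0.069 turned to -0.050 with the same sum of FPKM.

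The 4 subunits of the TRAP complex, which sit beside the channel and help signal sequences of weak affinity to open it, had log2 changes close to each other, from 0.32 to 0.42. Ssr2, the β subunit, was at 67.9, 79.9 and 84.5 FPKM in control and 119.7, 96.04 and 96.8 FPKM in lipophagy livers, a log2 change of 0.42 ± 0.12 (SE, adjusted p = 0.160 by limma). Ssr3, the γ subunit, was at 83.9, 91.7 and 94.95 FPKM and 125, 113 and 119 FPKM. Its groups were well apart, with a log2 change of 0.40 ± 0.084 (SE, adjusted p = 0.131 by limma), the lowest adjusted p of the 34 genes. Ssr4, the δ subunit, had 0.33 ± 0.13. Ssr1, the α subunit, was nearest to no change in the complex as deposited, at 8.72, 10.3 and 10.1 FPKM and 13.4, 11.2 and 12.4 FPKM (0.32 ± 0.097). Ssr4 was nearer after quantile normalization (0.165 against 0.26 for Ssr1) and with a pseudocount of 0.1 (0.33 against 0.34). All 4 had no overlap between groups, against 15.4% of all tested genes. All 4 also had an unadjusted p below 0.05 (limma) as deposited, against 11.5% higher at that p. Ssr1 and Ssr4 lost that p with the same sum of FPKM, which left 2 of 4, against 2.05%. Ssr4 was at 0.21 without control liver 1.

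**Figure D2:**
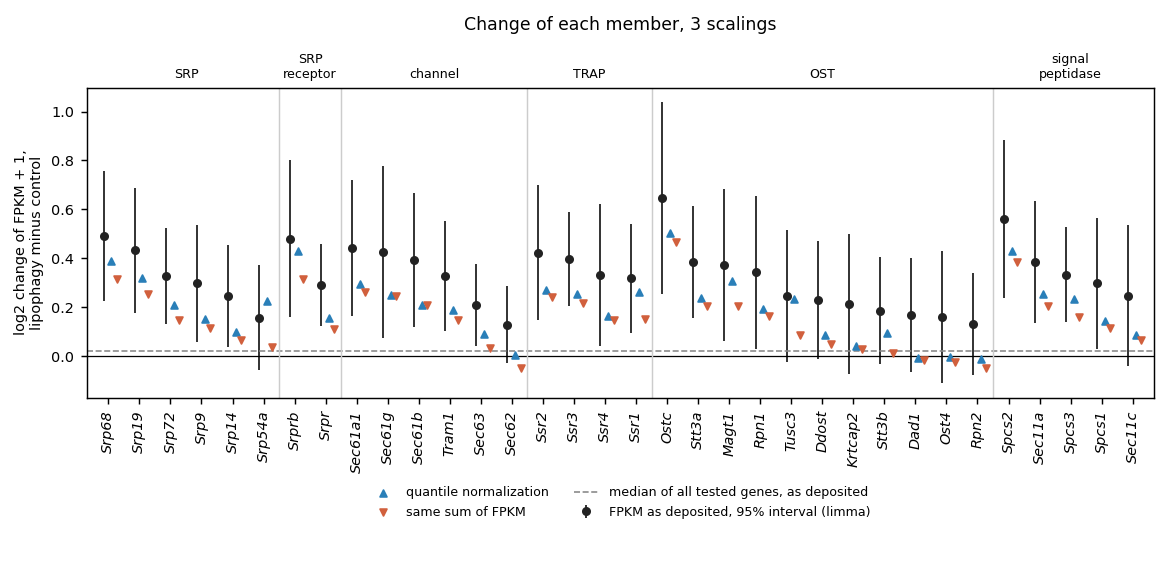
Log2 change of each gene on the log2(FPKM + 1) scale, lipophagy minus control, for the deposited values with the 95% interval (black), after quantile normalization (blue) and with each liver scaled to the same sum of FPKM (orange). With the deposited values 34 of 34 points lie above 0; Dad1, Ost4 and Rpn2 fall below 0 under both scalings and Sec62 below 0 with the same sum.

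OST exists in 2 forms, built around the catalytic subunits Stt3a, which works on chains still passing through the channel, and Stt3b, which reaches sites that Stt3a skips. Both share Rpn1, Rpn2, Ddost, Dad1 and Ost4, Ostc and Krtcap2 belong to the Stt3a form, and Tusc3 and Magt1 are alternative oxidoreductase subunits of the Stt3b form. This complex held the largest change of the 34 genes and several of the smallest. Ostc, which joins the Stt3a form to the channel, was at 50.3, 69.3 and 75.5 FPKM in control and 121, 95.4 and 88.5 FPKM in lipophagy livers, from a group mean of 65.02 ± 13.1 FPKM (SD, n = 3) in control livers and 102 ± 17.4 FPKM (SD, n = 3) in lipophagy livers. No livers overlapped, and the log2 change was 0.65 ± 0.17 (SE, adjusted p = 0.148 by limma), with a 95% interval of 0.25 to 1.04. Stt3a was at 33.6, 32.3 and 35.4 FPKM and 49.5, 39.1 and 45.2 FPKM (log2 change 0.38 ± 0.10 SE, adjusted p = 0.144 by limma), also without overlap.

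The shared subunits spanned much of the range. Rpn1 had a log2 change of 0.34 ± 0.14 without overlap between the groups, in which control liver 1 (37.7 FPKM) stood well below the other control livers (53.3 and 53.8 FPKM). The change was 0.18 without control liver 1 and 0.16 with the same sum of FPKM. Rpn2, the gene nearest to no change in OST, was at 61.4, 71.2 and 70.5 FPKM in control and 75.3, 77.9 and 69.4 FPKM in lipophagy livers, and its log2 change of 0.13 ± 0.090 turned to -0.013 after quantile normalization and to -0.049 with the same sum. Lipophagy liver 3 lay below control livers 2 and 3 for this gene, so the groups overlapped. Dad1 and Ost4 likewise overlapped, and their log2 changes of 0.17 and 0.16 turned to -0.0070 and -0.0052 after quantile normalization and to -0.014 and -0.024 with the same sum. Ddost (0.23 ± 0.11) and Krtcap2 (0.21 ± 0.12) overlapped as well, and were at 0.049 and 0.031 with the same sum. In OST 4 of 11 genes had no overlap between the groups, and outside OST 21 of 23, against 15.4% of all tested genes. An unadjusted p below 0.05 (limma) was found for 4 of 11 genes in OST and 20 of 23 outside it, against 11.5%. After quantile normalization these were 3 of 11 and 14 of 23 (6.48%), and with the same sum of FPKM 2 of 11 and 8 of 23 (2.05%). Summed over the complex, FPKM in lipophagy livers was 1.19 times that of control livers in OST and between 1.26 and 1.30 times in each of the other 5 complexes. With the same sum of FPKM the ratio was 1.05 in OST and between 1.11 and 1.14 in the others. Whether OST differs from the others was not tested.

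In signal peptidase, Sec11a and Sec11c are the alternative catalytic subunits, and Spcs1, Spcs2 and Spcs3 their accessory partners. Spcs2 had the second largest change of the 34 genes, from 24.03, 29.96 and 30.1 FPKM in control to 49.5, 35.04 and 41.5 FPKM in lipophagy livers. The groups did not overlap, and the log2 change was 0.56 ± 0.14 (SE, adjusted p = 0.137 by limma). Sec11a was at 42.2, 51.7 and 50.6 FPKM and 62.4, 57.7 and 69.5 FPKM, lipophagy liver 3 being highest, and had a log2 change of 0.39 ± 0.11 (SE, adjusted p = 0.157 by limma). Spcs3 (0.33 ± 0.085) and Spcs1 (0.30 ± 0.12) did not overlap between groups. As deposited 4 of 5 genes were higher at an unadjusted p below 0.05 (limma), against 11.5% of all tested genes. With the same sum of FPKM 1 of 5 was (Spcs2), against 2.05%. Sec11a, Spcs3 and Spcs1 were then at 0.21, 0.16 and 0.12. Sec11c was nearest to no change in this complex, at 48.3, 63.5 and 62.2 FPKM and 76.3, 67.2 and 62.7 FPKM, with lipophagy liver 3 below control liver 2 (log2 change 0.25 ± 0.12, and 0.067 with the same sum).

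**Figure D3:**
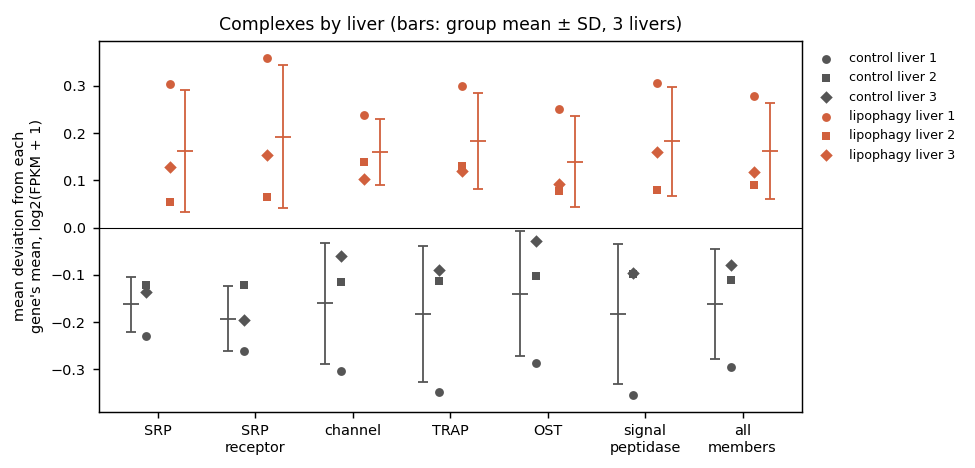
Mean deviation of each complex from its genes' means in each liver on the log2(FPKM + 1) scale, with group means and SD (3 livers) as bars. In each complex the 3 lipophagy livers (orange) lie above the 3 control livers (grey); over all 34 genes the control livers are at -0.30, -0.11 and -0.080 and the lipophagy livers at 0.28, 0.090 and 0.12.

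The complexes followed the same order of livers at the extremes. The mean deviation was lowest in control liver 1 and highest in lipophagy liver 1 in each of the 6 complexes. Between the inner livers the gap was narrow, and in OST control liver 3 was at -0.029 and lipophagy liver 2 at 0.077.

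Alternative subunits were compared within each liver, to ask whether a form of a complex changed more than its counterpart. The FPKM of Stt3a was between 1.66 and 2.18 times that of Stt3b in control livers and between 2.01 and 2.395 times in lipophagy livers. Stt3b itself was at 15.4, 19.4 and 17.8 FPKM in control and 20.7, 19.4 and 20.04 FPKM in lipophagy livers, with overlap and a log2 change of 0.18 ± 0.095, which was 0.011 with the same sum of FPKM. The difference of log2(FPKM + 1) values between Stt3a and Stt3b was 0.91 ± 0.19 (SD, n = 3) in control and 1.11 ± 0.13 (SD, n = 3) in lipophagy livers. This is a shift of 0.20 (two-sided exact permutation test, p = 0.2, and 0.6 adjusted over the 3 pairs compared). It was 0.098 to 0.28 when single livers were left out, and lowest without control liver 2. With 3 livers against 3 the smallest p the permutation test can give is 0.1, so that no shift could have passed a threshold of 0.05.

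Tusc3 was at 6.31, 4.56 and 5.68 FPKM in control and 7.07, 6.02 and 6.97 FPKM in lipophagy livers (log2 change 0.25 ± 0.12, and 0.088 with the same sum), and Magt1, the more abundant of this pair, at 9.57, 11.1 and 11.2 FPKM and 15.2, 11.2 and 16.1 FPKM (log2 change 0.37 ± 0.13). Tusc3 overlapped between groups, and Magt1 was separated from control liver 3 only narrowly in lipophagy liver 2. Their difference of log2(FPKM + 1) values shifted by -0.13 (exact permutation test, p = 0.7, adjusted 0.7), a shift that became 0.027 without control liver 1. For Sec11a against Sec11c the shift was 0.14 (exact permutation test, p = 0.5, adjusted 0.7), and lipophagy liver 3 was the one liver in which Sec11a exceeded Sec11c, at 1.11 times its FPKM against 0.813 to 0.873 times in the other livers.

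Most lists of genes around the machinery had smaller medians. Synthesis of the dolichol-linked sugar tree, which OST transfers, had 23 tested genes with a median log2 change of 0.13, which turned to -0.016 with the same sum of FPKM. Of these, 6 were higher and 0 lower at an unadjusted p below 0.05 (limma). Over all tested genes, as for each list that follows, the shares at that p were 11.5% higher and 7.97% lower. Dhdds, a subunit of the enzyme that makes the dolichol chain, had the largest positive log2 change, from 8.23 to 10.7 FPKM (0.35 ± 0.080 SE, adjusted p = 0.134 by limma). Alg2 was close, at 0.34 ± 0.11, and its mean FPKM rose more (33.4%, against 30.6% for Dhdds). Alg8, a glucosyltransferase, had the most negative log2 change (-0.12 ± 0.093, overlapping livers). For the supply of sugar nucleotides the median over 10 genes was 0.26, which was 0.078 with the same sum and 0.18 after quantile normalization. Of these, 5 were higher and 0 lower at that p. Gmppb, which makes GDP-mannose, was at 6.82, 7.88 and 7.21 FPKM in control and 19.7, 10.2 and 14.7 FPKM in lipophagy livers, a log2 change of 0.89 ± 0.20 (SE, adjusted p = 0.134 by limma), and the lowest gene of this list, Mpi, was at -0.0061 ± 0.12.

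After transfer, the sugar tree is trimmed and read by lectins during folding. Of 16 genes of this step 15 were tested, with a median of 0.17 that was 0.11 without control liver 1 and 0.030 after quantile normalization and turned to -0.0066 with the same sum of FPKM. Of these, 6 were higher and 0 lower at an unadjusted p below 0.05 (limma). Mgat2, a Golgi enzyme that starts the second branch of complex glycans, was at 12.9, 14.1 and 14.3 FPKM in control and 27.9, 21.2 and 22.5 FPKM in lipophagy livers, with groups far apart and a log2 change of 0.74 ± 0.11 (SE, adjusted p = 0.0832 by limma). Mgat1, which starts the first branch, was the lowest of the list (-0.060 ± 0.11), with overlapping livers. Other routes of insertion into the ER membrane, mainly the EMC and GET complexes, had a median of 0.11 over 22 genes, which was 0.026 after quantile normalization and turned to -0.071 with the same sum. It was 0.16 without control liver 2 and 0.17 without lipophagy liver 3. Of these genes 5 were higher and 0 lower at that p. In this list Emc6 was highest (0.30 ± 0.095) and Emc1 lowest (-0.11 ± 0.093).

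**Figure D4:**
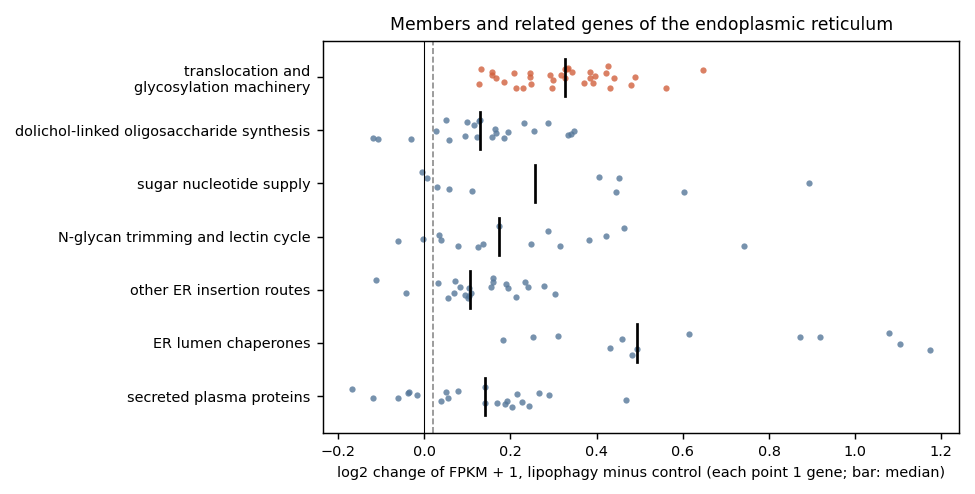
Log2 change on the log2(FPKM + 1) scale of the 34 genes (orange) and of 6 related lists (blue), 1 point per gene, with the median of each list as a bar and the median of all tested genes (0.020) as a dashed line. The machinery (median 0.33) lies between the chaperones of the ER lumen (0.49) and the other lists (0.11 to 0.26); with the same sum of FPKM the medians of dolichol-linked synthesis, trimming, other insertion routes and plasma proteins are below 0.

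Chaperones of the ER lumen had the largest median of the lists compared, 0.49, which was 0.31 with the same sum of FPKM and 0.34 after quantile normalization. In this list 13 of 13 were higher at an unadjusted p below 0.05 (limma). Without control liver 1 and lipophagy liver 1 the median was 0.29. Creld2 had the largest change (1.17 ± 0.35) and Sil1, a nucleotide exchange factor of BiP, the smallest (0.18 ± 0.079). Among the clients of the machinery the signs were mixed. Of 22 genes of secreted plasma proteins 16 were higher and 6 lower, with a median of 0.14 that turned to -0.025 after quantile normalization and to -0.043 with the same sum. At that p 5 were higher and 0 lower. Alb, the most abundant of them, went from 38614, 35470.2 and 39159 FPKM in control to 64089, 45009 and 49118 FPKM in lipophagy livers (0.47 ± 0.17), though as the most abundant gene of each liver it was made equal by quantile normalization. Hpx, which carries haem, was lowest (-0.17 ± 0.12, overlapping livers).

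Plasma cells are rich in the same machinery, and other cells of the liver carry it too, so their markers are given beside the result. Of 9 B cell and plasma cell markers in the table, 4 reached a mean of 0.5 FPKM, 0 had an unadjusted p below 0.05 (limma), and their summed level was 7.53 to 13.6 FPKM in control and 8.61 to 16.5 FPKM in lipophagy livers. Derl3, an ER protein and 1 of these markers, was at 2.36, 9.88 and 5.01 FPKM in control and 3.99, 13.8 and 8.16 FPKM in lipophagy livers. Tnfrsf17, which defines plasma cells, is listed at 0 in every liver, and Mzb1 was at 0.305, 0.399 and 0.239 FPKM in control and 0.287, 0.178 and 0.219 FPKM in lipophagy livers. Macrophage markers summed to 546 to 726 FPKM and 541 to 669 FPKM (10 tested, 1 higher and 2 lower at that p). Stellate cell markers summed to 163 to 177 FPKM and 129.7 to 159 FPKM (7 tested, 0 higher and 3 lower), and endothelial markers to 30.7 to 38.3 FPKM and 34.6 to 54.6 FPKM (6 tested, 0 and 0). Bile duct markers summed to 137 to 247 FPKM and 92.0 to 196 FPKM, with 5 of 5 lower, a median log2 change of -0.53 and 0 with such a p. Most of that sum was Spp1, at 130.8, 227.2 and 235.5 FPKM in control and 87.4, 186.7 and 97.7 FPKM in lipophagy livers. Neutrophil markers summed to 18.8 to 31.95 FPKM and 16.1 to 18.7 FPKM (3 tested, 0 higher and 2 lower) and T cell markers to 2.42 to 3.79 FPKM and 2.18 to 3.22 FPKM (2 tested, 0 and 0). Hepatocyte markers had a median log2 change of 0.26 with the deposited values, with 9 of 10 higher and 4 with such a p. Among them Alb, Apoa1, Ttr and Serpina1a also belong to the plasma protein list, whose median turned to -0.043 with the same sum of FPKM. The part of this shift in markers in the higher level of the machinery was not tested.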

How the data were processed

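Poly(A) RNA of 6 mouse livers was sequenced in paired-end mode from stranded libraries (on a HiSeq instrument per the labels, on a NovaSeq instrument per the methods). The authors deposited FPKM values per gene symbol and liver. Their processing notes name TopHat2 2.0.13, Bowtie2 2.2.3, SAMtools 0.1.19, Cufflinks 2.2.1 and mm10; the annotation is not given in the sources used here. Since FPKM hold no counts, count models were left out. Groups came from the labels. The limma p-values set the difference between groups against the spread of the 3 livers within each group, with a variance moderated over all tested genes.

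The values were taken as log2(FPKM + 1), and 11493 genes averaging 0.5 FPKM or more were fitted with limma 3.58.1 in R 4.3.3 (moderated variance with intensity trend, no covariate, two-sided), p-values being adjusted by Benjamini-Hochberg over all 11493, at a threshold of 0.05. For alternative subunits the within-liver difference of each pair was put to an exact permutation test, two-sided. Every one of the 34 genes is accounted for; values in each liver are given for the 12 largest changes, the 3 pairs and the gene nearest to no change in each complex. In related lists the genes with the highest and the lowest log2 change are named. The 34 genes and all lists were chosen with earlier results of these data known. Transcript lengths and shared 100-base windows came from GENCODE M21 (GRCm38); lengths matched 23949 of 24346 symbols, 665 through a synonym. Python 3.11.15 with scipy 1.17.1 was used.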

Additional observations from a re-analysis of the deposited data

How the results depend on the processing

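The count of members with an adjusted p below 0.05 was 0 and the count lower at an unadjusted p below 0.05 was 0 under every alternative run (limma), which were pseudocounts of 0.1 and 0.5, other filters, 3 scalings, no intensity trend, the replicate block, quality weights, removal of the trend on transcript length and each liver left out. The count of 24 higher members became 10 with the same sum of FPKM and 12 without control liver 1 and lipophagy liver 1, an alternative chosen after seeing the data; leaving out single livers gave 17 to 24. The median log2 change of 0.33 became 0.15 with the same sum and 0.21 after quantile normalization, and was 0.26 to 0.35 when single livers were left out. Single members turned below 0 with the same sum (Sec62 -0.050, Rpn2 -0.049, Dad1 -0.014, Ost4 -0.024) and after quantile normalization (Rpn2 -0.013, Dad1 -0.0070, Ost4 -0.0052). Among related lists the median turned with the same sum for dolichol-linked synthesis (-0.016), trimming (-0.0066), other insertion routes (-0.071) and plasma proteins (-0.043), and for plasma proteins after quantile normalization (-0.025). The shift of Tusc3 against Magt1 was -0.27 to 0.027 when single livers were left out and 0.045 without control liver 1 and lipophagy liver 1; that of Stt3a against Stt3b was 0.098 to 0.28 and that of Sec11a against Sec11c 0.0062 to 0.22. With the replicate number as a block 23 members were higher at an unadjusted p below 0.05 (limma). Deviations of livers of the same number from their group means correlated at 0.25, 0.23 and -0.057. Control liver 3 correlated best with lipophagy liver 2. These correlations cannot decide whether the numbers pair the livers, since deviations from a mean of 3 livers offset each other and tie the correlations together. Among all tested genes those with an adjusted p below 0.05 (limma) went from 3 to 43 with the block, 39 with quality weights, 104 with the same sum, 6 with the length trend removed, 1 with no filter, 7 without both end libraries and 2 to 11 when single livers were left out. The causes were not tested. FPKM hold no counts, so no counting interval can be given.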

Other observations

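Close relatives of the machinery outside the 34 genes, chosen after the results were seen, did not all lie on the same side (log2 changes ± SE). Serp1, a small protein that protects unfolded chains at the Sec61 channel, was at 92.6, 118 and 118 FPKM in control and 156, 139.7 and 154 FPKM in lipophagy livers, without overlap (log2 change 0.46 ± 0.11 SE, adjusted p = 0.135 by limma). Tmem258, a further OST subunit, was at 116, 164 and 176 FPKM and 205, 183 and 181 FPKM (0.33 ± 0.15), also without overlap. Sec61a2, the alternative pore subunit, was by contrast at 1.82, 2.14 and 1.72 FPKM and 1.04, 1.73 and 1.76 FPKM, with overlapping livers and a log2 change of -0.21 ± 0.13. Tram2, the relative of Tram1, was at 0.853, 0.616 and 0.598 FPKM and 0.481, 0.427 and 0.526 FPKM, so that each lipophagy liver lay below each control liver (-0.19 ± 0.087 SE, adjusted p = 0.275 by limma). Both are low next to Sec61a1 and Tram1.

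In the Golgi, where the sugar trees are completed, 10 of 13 genes, also chosen after the results were seen, were tested, and the median log2 change was 0.020, as over all tested genes when rounded to 2 significant digits. At an unadjusted p below 0.05 (limma), 2 were higher and 1 was lower. St3gal4, a sialyltransferase, was at 30.2, 29.9 and 27.2 FPKM in control and 35.4, 34.9 and 37.5 FPKM in lipophagy livers (0.30 ± 0.078), and Slc35a1, which carries its CMP-sialic acid donor into the Golgi, at 8.54, 7.44 and 8.55 FPKM and 10.1, 9.56 and 10.4 FPKM (0.27 ± 0.084). B4galt1, the galactosyltransferase that acts just before them, was at 8.80, 7.22 and 7.53 FPKM and 4.93, 5.72 and 6.43 FPKM, with every lipophagy liver below every control liver and a log2 change of -0.40 ± 0.11 (SE, adjusted p = 0.152 by limma).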
